A study of Mus musculus with 6 samples.

Results

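The immediate early and heat shock genes Fos, Fosb, Jun, Junb, Jund, Egr1, Ier2, Atf3, Dusp1 and Hspa8 were examined in CD144-enriched cells of ischemic mouse muscle. These 10 genes are a listed set whose transcripts are known to rise on injury or on dissociation of a tissue. They were found by matching the Ensembl identifiers of the count files to gene symbols, and all 10 were among the 47729 genes in the files. Of these, 9 were among the 8903 genes with enough reads to be tested. Atf3 was not.

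Cells were obtained with beads against CD144 (VE-cadherin, a junction protein of endothelial cells) from muscle digested with collagenase. All mice were fed a high-fat, high-sucrose diet, all underwent hind limb ischemia (HLI) surgery on day 0, and all received an adenovirus by injection into the muscle on days 1 and 4 by the labels, before harvest after 1 week. The study's methods place the second injection on a later day. WT + GFP denotes wild-type mice given Ad-GFP, KO + GFP denotes Leene-knockout mice given Ad-GFP, and KO + LEENE denotes Leene-knockout mice given Ad-LEENE, which carries the human long noncoding RNA. Each group had 2 libraries. The knockout is a CRISPR/Cas9 deletion of the mouse region syntenic to human LEENE, carried in all cells, and the vectors are not restricted to endothelial cells. The labels give no age or sex for a sample and do not say whether the libraries of a group came from separate mice. The file headers carry 3 facility sample numbers for the 6 libraries, 1 for each group, so the libraries of a group may come from 1 sample, and each SD, SE and adjusted p may then hold no difference between mice. The genotype was not checked against Leene itself.

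Immediate early genes are transcribed within minutes of a stimulus, without new protein synthesis, through kinase cascades that act on factors already bound to their promoters. Fos and Jun proteins pair to form the transcription factor AP-1, EGR1 is a zinc finger factor, and DUSP1 is a phosphatase that switches the kinases off again. Heat shock proteins such as HSC70, the product of Hspa8, are chaperones that fold other proteins. In endothelial cells these genes respond to growth factors, shear stress and ischemia, and they are also known to be induced while tissue is digested into single cells.

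Libraries of a group were close to each other and far from the other groups. Totals ranged from 1770992 reads in a KO + LEENE library to 5602603 reads in a KO + GFP library, so the detection floor of 3 reads lay between 0.536 and 1.69 CPM (counts scaled to a common library total). Within a pair, the median squared difference of a gene was 1.18 to 1.24 times that of counting alone, while a chi-square statistic per degree of freedom over all such genes was 10.0 for WT + GFP, 1.38 for KO + GFP and 1.20 for KO + LEENE. The adjusted p values below measure only this spread between libraries, which may be technical. Between groups, many genes were all or none: of 3931 genes that reached 20 CPM in a group, 1271 (32.3%) were at or under the floor in both libraries of another group. The mitochondrial genome gave 50.5% ± 0.566 (SD, n = 2) of WT + GFP reads, and 34.3% ± 0.0778 and 33.7% ± 0.0919 of those of KO + GFP and KO + LEENE. Because the cells were measured in bulk, fewer cells of a type and less RNA per cell cannot be told apart.

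The promoters of 3 of the genes are shown because, of the genes with a promoter in the RefSeq table, these moved furthest: Fos and Dusp1 were highest in KO + GFP, and Junb was highest in WT + GFP. Each run holds the 250 bases before and 50 bases after the RefSeq start on GRCm38.p6, 5′ to 3′ on the strand of the gene. Fos lies at chr12:85473640-85473939 on the plus strand, Junb at chr8:84978699-84978998 on the minus strand and Dusp1 at chr17:26508423-26508722 on the minus strand. Capitals mark the matches to the motifs searched on both strands.
Fos: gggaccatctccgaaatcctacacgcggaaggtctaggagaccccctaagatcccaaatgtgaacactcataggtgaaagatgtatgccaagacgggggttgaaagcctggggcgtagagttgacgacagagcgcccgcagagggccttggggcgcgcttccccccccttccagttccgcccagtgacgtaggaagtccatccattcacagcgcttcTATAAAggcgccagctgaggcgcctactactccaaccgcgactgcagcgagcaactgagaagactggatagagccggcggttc
Junb: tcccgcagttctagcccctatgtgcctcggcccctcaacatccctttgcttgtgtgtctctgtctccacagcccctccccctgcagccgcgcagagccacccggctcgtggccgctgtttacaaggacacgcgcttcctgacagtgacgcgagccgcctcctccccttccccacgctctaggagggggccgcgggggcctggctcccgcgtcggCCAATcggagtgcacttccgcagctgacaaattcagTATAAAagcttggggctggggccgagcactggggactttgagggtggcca
Dusp1: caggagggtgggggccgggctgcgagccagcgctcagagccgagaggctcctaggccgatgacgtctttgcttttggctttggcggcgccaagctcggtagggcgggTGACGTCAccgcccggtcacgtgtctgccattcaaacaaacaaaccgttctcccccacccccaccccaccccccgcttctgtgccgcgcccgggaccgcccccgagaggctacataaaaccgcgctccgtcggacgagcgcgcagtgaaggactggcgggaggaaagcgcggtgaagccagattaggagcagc

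The Fos window held TATAAA at -33 to -28 from the start site. The Junb window held CCAAT at -36 to -32 and TATAAA at 1 to 6, and the Dusp1 window held TGACGTCA, the full cyclic AMP response element, at -143 to -136. Promoters of 7 of the 10 genes were in the RefSeq table. Of the other 4, Jun had GAANNTTC (the core of a heat shock element) at -128 to -121 and CCAAT at -65 to -61, Atf3 had CCAAT at 6 to 10, and Fosb and Jund had no match. TGANTCA (the AP-1 site) and the CArG box (the site of serum response factor) had no match in these 7 windows. Sites more than 250 bases before the start were not searched, and Egr1, Ier2 and Hspa8 had no window. Among 32851 promoter windows of this length, TGANTCA was found in 7.81%, TGACGTCA in 1.79%, GAANNTTC in 7.86%, the CArG box in 1.63%, CCAAT in 37.4% and TATAAA in 13.6%. These matches describe the letters of the windows and were not tested for binding.

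The 10 genes together made up 0.108% ± 0.0017 (SD, n = 2) of WT + GFP reads, 0.294% ± 0.0017 of KO + GFP reads and 0.179% ± 0.00396 of KO + LEENE reads. Without the mitochondrial reads the shares were 0.219%, 0.448% and 0.269%. By these shares of raw reads, both KO + GFP libraries were above both KO + LEENE libraries, and these above both WT + GFP libraries. The TMM factors used for the gene values below were 1.52 in both KO + LEENE libraries and 0.959 and 0.955 in WT + GFP. The size of the step between these 2 groups therefore depends on the scaling. The genes behind the sum differed by group. Jun gave 40.1% of it in WT + GFP and 74.1% in KO + LEENE, whereas Dusp1 gave 36.1% in KO + GFP.

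**Figure D1:**
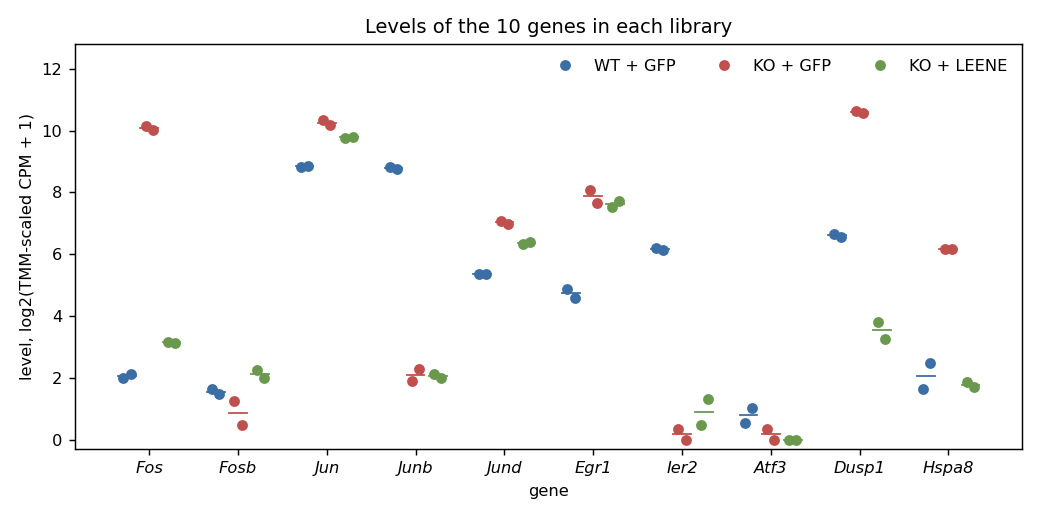
Level of each of the 10 genes in each library, as log2 of TMM-scaled CPM plus 1 (vertical axis), by gene and group; each point is 1 library and each short line the mean of 2. The 2 libraries of a group sit close together, Fos, Dusp1 and Hspa8 stand out in KO + GFP, Junb and Ier2 are near the bottom in both knockout groups, and Jun stays high in all 3.

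Fos, the AP-1 subunit whose transcript is the classic marker of recent stimulation (chr12:85473890-85477273, GRCm38), had 13 and 13 reads (WT + GFP), 4207 and 2674 (KO + GFP) and 21 and 21 (KO + LEENE). It was high in the KO + GFP libraries alone, and no groups overlapped. On the scale of CPM with TMM factors (a scaling that sets the bulk of genes equal between libraries), this was 3.17 ± 0.220 (SD, n = 2), 1092 ± 73.7 and 7.82 ± 0.0753. KO + GFP differed from WT + GFP by 8.42 ± 0.160 (SE) on the log2 scale (adjusted p = 9.07e-305, edgeR), and the difference was -7.12 ± 0.150 in KO + LEENE against KO + GFP (adjusted p = 1.5e-269). KO + LEENE was 1.30 ± 0.316 above WT + GFP (adjusted p = 0.00039), with few reads in both groups.

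Fosb, a second AP-1 subunit of the Fos family, was scarce. It had 9 and 7 reads (WT + GFP), 5 and 1 (KO + GFP) and 10 and 8 (KO + LEENE). It was lowest in KO + GFP, the group in which Fos was highest. On comparing KO + GFP with WT + GFP, the difference was -0.99 ± 0.708 on the log2 scale (adjusted p = 0.208, edgeR), and on comparing KO + LEENE with KO + GFP it was 1.77 ± 0.679 (adjusted p = 0.0151). The latter call was lost with DESeq2 (adjusted p = 0.0663), without the second KO + GFP library (adjusted p = 0.143) and without the first KO + LEENE library (adjusted p = 0.123). Of the other Fos family genes, Fosl1 had 9 and 11 reads (WT + GFP) and 0 in the other 4 libraries, and Fosl2 had 9 and 4, 38 and 31, and 20 and 26 reads. Fos therefore made up 34.8% ± 3.28 (WT + GFP), 98.9% ± 0.120 (KO + GFP) and 39.7% ± 2.12 (KO + LEENE) of Fos family reads, and the first and last of these shares rest on at most 55 family reads a library. Per exon length the KO + LEENE share was 70.1%.

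Jun, the main partner of Fos in AP-1 (chr4:95049034-95052222), was abundant in every library. It had 1937 and 1816 reads (WT + GFP), 4718 and 2999 (KO + GFP) and 2322 and 2388 (KO + LEENE). Its TMM-scaled CPM was 457 ± 10.9, 1225 ± 82.6 and 876 ± 8.93, in that order of groups, with no overlap. KO + GFP differed from WT + GFP by 1.42 ± 0.110 on the log2 scale (adjusted p = 2.52e-35, edgeR), and the difference was 0.94 ± 0.109 in KO + LEENE against WT + GFP (adjusted p = 7.92e-17). In KO + LEENE against KO + GFP it was -0.48 ± 0.108 (adjusted p = 1.68e-05), but 0.67 when libraries were scaled by their totals only. The antisense gene Junos shares 232 exon bases with Jun and had at most 5 reads in a library.

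Jund, the Jun family member that is expressed most steadily in resting cells, changed in the same order as Jun at a lower level. It had 174 and 158 reads (WT + GFP), 495 and 322 (KO + GFP) and 214 and 222 (KO + LEENE). On comparing KO + GFP with WT + GFP, the difference was 1.69 ± 0.110 on the log2 scale (adjusted p = 1.06e-47, edgeR) and 1.01 ± 0.123 in KO + LEENE against WT + GFP (adjusted p = 2.19e-15). It was -0.68 ± 0.106 in KO + LEENE against KO + GFP (adjusted p = 3.73e-10), and 0.47 by library totals only.

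Junb, the Jun family member that often opposes Jun (chr8:84976909-84978748), had the opposite pattern. It had 1952 and 1675 reads (WT + GFP), 10 and 10 (KO + GFP) and 9 and 8 (KO + LEENE). The wild-type libraries were high and all 4 knockout libraries were low, with overlap between the knockout groups. TMM-scaled CPM was 440 ± 17.0 (SD, n = 2) for WT + GFP, 3.30 for KO + GFP and 3.17 for KO + LEENE. Junb differed from its wild-type level on the log2 scale by -7.09 ± 0.151 for KO + GFP (adjusted p = 1.33e-267, edgeR) and -7.10 ± 0.157 for KO + LEENE (adjusted p = 4.75e-255). Between the knockout groups the difference was -0.02 ± 0.456 (adjusted p = 0.989), and 1.13 by library totals only (adjusted p = 0.0261).

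Within the Jun family, the make-up of the reads therefore differed between wild-type and knockout libraries. Jun took 48.7% ± 1.49 (SD, n = 2) of family reads for WT + GFP, 90.2% ± 0.212 for KO + GFP and 91.2% ± 0.0212 for KO + LEENE. The share of Junb was 47.0% ± 1.51, 0.246% ± 0.0769 and 0.330% ± 0.0339, and that of Jund 4.31% ± 0.0332, 9.57% ± 0.134 and 8.45% ± 0.0502. These shares do not depend on the scaling of the libraries, and the Junb share of both wild-type libraries lay above the range of the 4 knockout libraries. Because the 3 shares sum to the whole, the fall in that of Junb by itself raises those of Jun and Jund. The 3 shares are therefore not separate results. Between groups of 2 libraries an exact permutation test of one such share cannot give a p below 0.333, and neither this nor the split of wild-type against knockout libraries was tested.

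**Figure D2:**
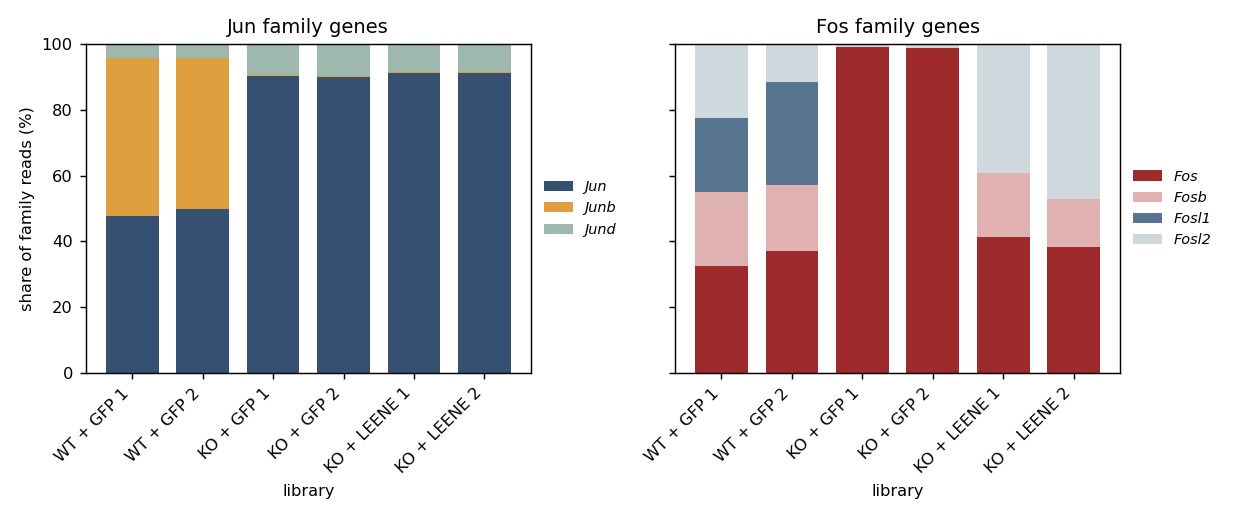
Share of family reads (%, vertical axis) taken by each Jun family gene (left) and each Fos family gene (right) in each of the 6 libraries. Junb fills 47.0% of the Jun family bar in WT + GFP and less than 1% in the knockout groups, and Fos fills 98.9% of the Fos family bar in KO + GFP.

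Egr1, which encodes a zinc finger factor induced by growth factors and vessel injury, was high in both knockout groups. It had 123 and 90 reads (WT + GFP), 997 and 515 (KO + GFP) and 492 and 567 (KO + LEENE). TMM-scaled CPM was 25.8 ± 3.88, 236 ± 50.1 and 197 ± 17.8, with overlap between the knockout groups and none with WT + GFP. KO + GFP differed from WT + GFP by 3.20 ± 0.106 on the log2 scale (adjusted p = 4.48e-147, edgeR), and the difference was 2.93 ± 0.110 in KO + LEENE against WT + GFP (adjusted p = 1.7e-120). The difference between the knockout groups was -0.28 ± 0.0821 (adjusted p = 0.00144), but 0.87 by library totals only. That call was lost with DESeq2 (adjusted p = 0.208), without a filter on low counts (0.334), after thinning to the smallest library total (0.967), without the first KO + GFP library (0.712) and without the first KO + LEENE library (0.329).

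Ier2, a small nuclear immediate early protein, shared the pattern of Junb. It had 315 and 269 reads (WT + GFP), 1 and 0 (KO + GFP) and 1 and 4 (KO + LEENE). The ratio of summed reads, WT + GFP over KO + GFP, was 444 (95% counting interval 79.3 to 17600) after scaling, and Ier2 was lower in KO + LEENE than in WT + GFP (log2 fold change -6.20 ± 0.315, adjusted p = 1.11e-73, edgeR). The knockout groups were not called different (adjusted p = 0.113), but were by library totals only (0.0159) and without the first KO + LEENE library (0.0472). Atf3, a stress-induced factor that dimerizes with Jun, had 2 and 4 reads (WT + GFP), 1 and 0 (KO + GFP) and 0 in both KO + LEENE libraries. A difference in Atf3 was not detectable at this depth.

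Dusp1, the phosphatase that inactivates the p38, JNK and ERK kinases (chr17:26505590-26508519), resembled Fos in KO + GFP but not in KO + LEENE. It had 429 and 366 reads (WT + GFP), 5853 and 3914 (KO + GFP) and 35 and 23 (KO + LEENE). TMM-scaled CPM was 96.5 ± 4.13, 1557 ± 49.3 and 10.8 ± 3.26, with no overlap. On comparing KO + GFP with WT + GFP, the difference was 4.01 ± 0.122 on the log2 scale (adjusted p = 1.07e-165, edgeR), -7.17 ± 0.161 in KO + LEENE against KO + GFP (adjusted p = 1.64e-250) and -3.16 ± 0.169 in KO + LEENE against WT + GFP (adjusted p = 3.47e-67). In KO + LEENE, Dusp1 therefore lay below its wild-type level and Fos above it.

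Hspa8, which encodes the constitutive chaperone HSC70 (chr9:40800984-40805200), had 9 and 18 reads (WT + GFP), 259 and 183 (KO + GFP) and 7 and 6 (KO + LEENE). It was high in the KO + GFP libraries alone. KO + GFP differed from WT + GFP by 4.41 ± 0.222 on the log2 scale (adjusted p = 5.02e-75, edgeR), and the difference was -4.85 ± 0.269 in KO + LEENE against KO + GFP (adjusted p = 3.04e-63). KO + LEENE and WT + GFP overlapped (-0.44 ± 0.517, adjusted p = 0.457, and 0.23 by library totals only). Hspa8 has near-identical processed copies in the genome, and only uniquely aligned reads were counted, so its reads may be incomplete.

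In KO + GFP against WT + GFP, 8 of the 9 tested genes passed the test, beside 70.1% of all 8903 genes tested. The 6 higher genes were Fos, Jun, Jund, Egr1, Dusp1 and Hspa8, and the 2 lower genes were Junb and Ier2. Over all genes 34.2% were higher and 35.9% lower. Fosb was the gene not called, but with library totals only it was called lower (-1.46, adjusted p = 0.0471, edgeR), and likewise higher in KO + LEENE against WT + GFP (1.44, adjusted p = 0.0129).

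In KO + LEENE against KO + GFP, 7 of 9 passed, beside 67.8% of all genes. Fosb was higher, and Fos, Jun, Jund, Egr1, Dusp1 and Hspa8 were lower, beside 32.8% and 34.9% of all genes. This direction depends on the scaling: with library totals only, 9 genes passed and 6 of these were higher. Of all 8903 genes, 6663 then passed and 4474 of these were higher, while the median of all genes moved by 1.08. Relative to that shift the log2 differences of Jun (0.67), Jund (0.47) and Egr1 (0.87) were below it, whereas Fos (-5.97), Dusp1 (-6.02) and Hspa8 (-3.70) were lower under both scalings.

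In KO + LEENE against WT + GFP, 7 of 9 passed, beside 70.7% of all genes. Fos, Jun, Jund and Egr1 were higher, beside 33.9% of all genes, and Junb, Ier2 and Dusp1 were lower, beside 36.9%. Library totals alone moved the median of all genes by 0.61 in this comparison and by -0.48 in KO + GFP against WT + GFP, and no called gene of the 10 changed direction in either. The 3 comparisons share libraries. A pass was the usual outcome for a gene in these data, and the number of these genes that passed was close to that background.

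**Figure D3:**
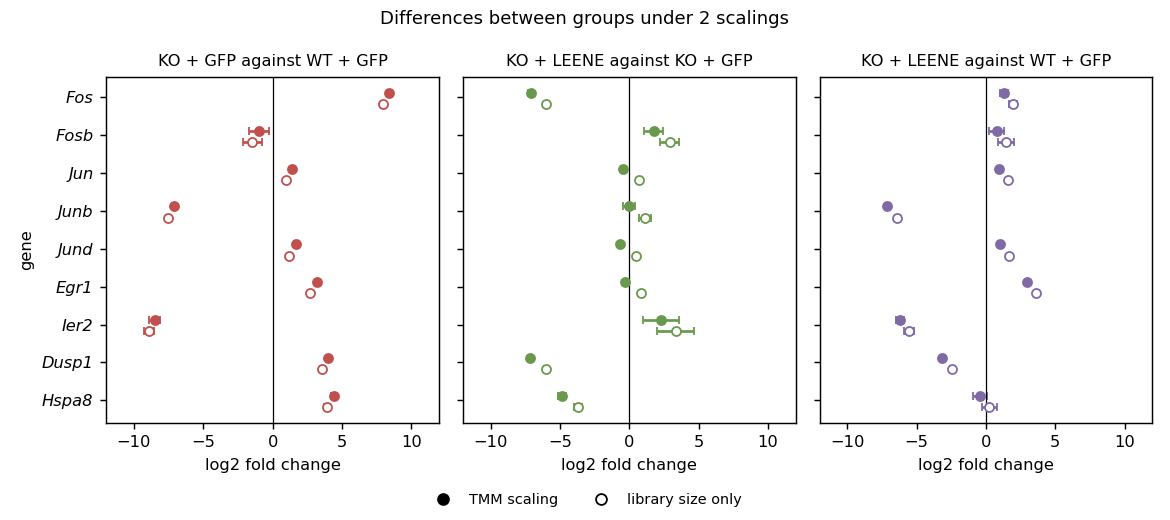
Log2 fold change (horizontal axis) of the 9 tested genes in the 3 comparisons, as filled points with TMM scaling and open points with library totals only; bars are SE. Jun, Jund and Egr1 lie on opposite sides of 0 under the 2 scalings in KO + LEENE against KO + GFP, and Fos, Dusp1 and Hspa8 lie far to the left under both.

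Differences of 10-fold or more against each of the other groups were also compared with the rest of the genes. Fos, Dusp1 and Hspa8 were at least 10 times higher in KO + GFP than in each other group, as were 1148 genes (12.9%) of all tested. Junb and Ier2 were so in WT + GFP, as were 1013 genes (11.4%), and none of the 9 was so in KO + LEENE, as were 959 genes (10.8%).

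The order of the groups for each gene was as follows. With TMM scaling, Fos, Jun, Jund and Egr1 were highest in KO + GFP, then KO + LEENE, then WT + GFP, and of these the upper neighbours overlapped for Egr1, but by library totals only, KO + LEENE was the highest group for Jun, Jund and Egr1, with no overlap. With the same scaling, Dusp1 and Hspa8 were highest in KO + GFP and lowest in KO + LEENE, with overlap between the lower neighbours for Hspa8. By library totals only, Hspa8 was lowest in WT + GFP (mean CPM 3.17 against 3.65 in KO + LEENE), again with overlap. Junb and Ier2 were highest in WT + GFP, with the knockout groups not called different by TMM scaling but called by library totals only (adjusted p = 0.0261 and 0.0159, edgeR). Per kilobase of exon, the TMM-scaled CPM of the genes ranked Junb (239), Jun (143), Ier2 (46.6) and Dusp1 (35.8) first in WT + GFP. In KO + GFP the first 4 were Dusp1 (577), Fos (464), Jun (384) and Egr1 (52.6), and in KO + LEENE they were Jun (275), Egr1 (43.9), Jund (28.2) and Dusp1 (4.01). The libraries read the 3′ ends of transcripts, so reads need not rise with length, and this ranking is approximate.

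Other immediate early genes also moved in both directions. Of 36 listed, 20 were tested, and in KO + GFP against WT + GFP 10 were higher, 8 lower and 2 not called, beside 34.2% higher and 35.9% lower of all genes, with a median log2 fold change of 0.38 (1.69 for the 9 genes above, -0.09 for all genes). In KO + LEENE against KO + GFP 6 were higher and 12 lower, beside 32.8% and 34.9% of all genes (median -0.98, with -0.48 for the 9 genes and -0.01 for all genes). In KO + LEENE against WT + GFP 7 were higher and 8 lower, beside 33.9% and 36.9% (median -0.13, with 0.77 for the 9 genes and -0.11 for all genes).

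Genes of this and the next lists were named for their mean over all libraries, so a gene high in 1 group alone, as Nfkbia, Dnajc3 and Atf1 were in KO + GFP, could be named through that group, and its being high there is a description. Among the 8 most abundant, Nfkbia, the inhibitor of NF-kappaB, had 81 and 83 reads (WT + GFP), 26944 and 17073 (KO + GFP) and 493 and 514 (KO + LEENE). Its log2 fold changes were 8.45 in KO + GFP against WT + GFP, -5.22 in KO + LEENE against KO + GFP and 3.23 in KO + LEENE against WT + GFP, so its levels had the same order as those of Fos. Btg1, an antiproliferative gene, had 14228 and 13056 reads, 42 and 30, and 14 and 19, and thus the order of Junb. Sgk1, a kinase induced by serum and glucocorticoids, rose by 3.92 on the log2 scale in KO + GFP and was -1.52 in KO + LEENE against KO + GFP, or -0.37 by library totals only. Dusp6, a phosphatase specific for ERK, rose by 1.15 in KO + GFP, and its difference of -1.05 in KO + LEENE against KO + GFP was 0.10 by library totals only. The matricellular genes diverged: Cyr61 (CCN1) was highest in KO + LEENE (log2 fold change 2.05 against WT + GFP), while Ctgf (CCN2) was lower in both knockout groups (-2.77 and -3.28). Klf6, a zinc finger factor, was likewise lower in both (-1.43 and -1.79). Ier3, a survival gene of the immediate early class, was lower in KO + GFP (-3.98) and, in KO + LEENE, above KO + GFP (3.45).

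The other heat shock and chaperone genes gave no common direction. Of 32 listed, 31 were matched and 23 tested. In KO + GFP against WT + GFP 10 were higher and 8 lower, beside 34.2% and 35.9% of all genes (median 0.21, with -0.09 for all genes). For KO + LEENE against KO + GFP, 7 were higher and 11 lower, beside 32.8% and 34.9% (median -1.26, with -0.01), and in KO + LEENE against WT + GFP 5 were higher and 10 lower, beside 33.9% and 36.9% (median -0.47, with -0.11). Hspa5, the chaperone BiP of the endoplasmic reticulum, had 24 and 15 reads (WT + GFP), 1588 and 1053 (KO + GFP) and 37 and 40 (KO + LEENE). Dnajc3, a cochaperone of BiP, had 16 and 17, 9768 and 6133, and 3 and 8 reads. Both were thus high in KO + GFP, as Hspa8 was.

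The 2 cytosolic HSP90 genes differed from each other. Hsp90ab1 had 1713 and 1640 reads (WT + GFP), 24 and 11 (KO + GFP) and 767 and 811 (KO + LEENE), with log2 fold changes of -6.18 in KO + GFP against WT + GFP and 5.70 in KO + LEENE against KO + GFP. Hsp90aa1 was lower in KO + GFP (-1.72) and lower again in KO + LEENE against KO + GFP (-1.80, or -0.64 by library totals only). Hspa4, a nucleotide exchange factor of the HSP70 cycle, was higher in KO + LEENE (4.08 against KO + GFP and 4.04 against WT + GFP), and its difference between KO + GFP and WT + GFP was -0.04, or -0.53 by library totals only. The mitochondrial chaperonins, whose genes share 112 exon bases on opposite strands, differed: Hspd1 fell by 3.43 in KO + LEENE against KO + GFP (log2 fold change -3.43), while Hspe1 was 0.40. In KO + GFP against WT + GFP, Hspe1 was -1.18 and Hspd1 was 0.21 (adjusted p = 0.0341, edgeR), a value that was -0.27 by library totals only and a call lost with DESeq2 (0.152), the replicate block (0.0533), no filter (0.276), thinning (0.136), only the 4 libraries compared (0.0624), and without the first (0.452) or second (0.0657) WT + GFP library or the first KO + GFP library (0.205). Hsf2, a heat shock transcription factor, was lower in both knockout groups than in WT + GFP (-1.36 and -1.25).

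Upstream kinases and factors were mostly scarce. Of 27 listed, 16 were tested. In KO + GFP against WT + GFP 3 were higher and 8 lower, beside 34.2% and 35.9% of all genes (median -0.81, with -0.09 for all genes). With KO + LEENE against KO + GFP, 6 were higher and 3 lower, beside 32.8% and 34.9% (median 0.50, with -0.01), and in KO + LEENE against WT + GFP 5 were higher and 7 lower, beside 33.9% and 36.9% (median -0.63, with -0.11). Atf1, a factor that binds the cyclic AMP response element, had 14 and 9 reads (WT + GFP), 2373 and 1554 (KO + GFP) and 7 and 8 (KO + LEENE). Its relative Creb1 had 335 and 371, 10 and 7, and 34 and 29 reads, and Braf, a kinase at the head of the ERK cascade, had 586 and 571, 20 and 10, and 14 and 16. Both were low in the knockout libraries, as Junb and Ier2 were. Mapk9, which encodes JNK2 and phosphorylates Jun, was not called between KO + GFP and WT + GFP (-0.15 ± 0.105, adjusted p = 0.185, edgeR), but was by library totals only (-0.64, adjusted p = 9.34e-13) and with at least 10 reads in every library (-0.19, adjusted p = 0.0365), and it was 1.03 in KO + LEENE against KO + GFP.

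**Figure D4:**
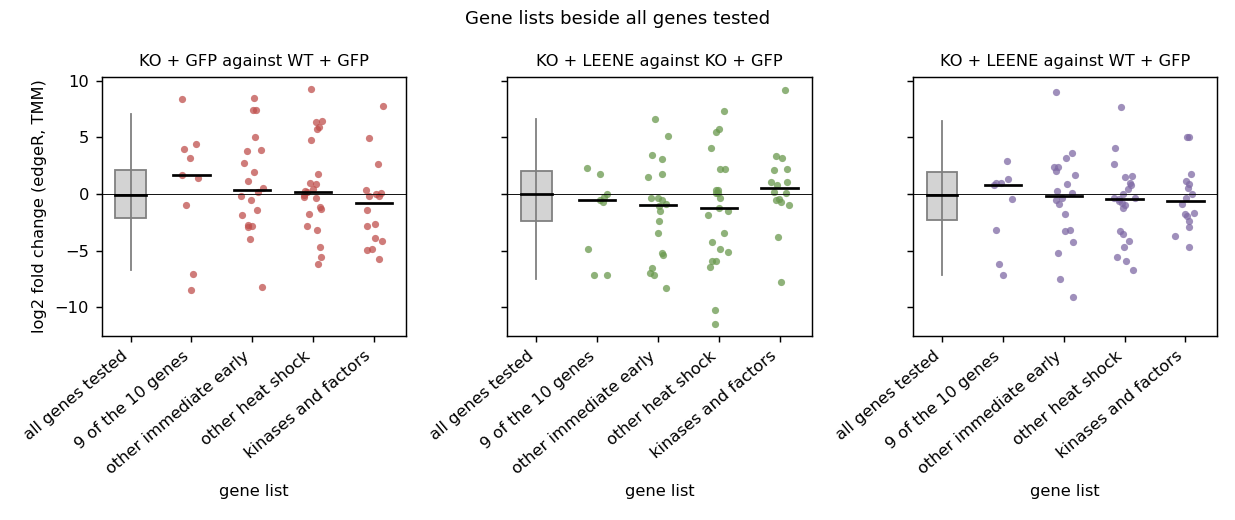
Log2 fold change (vertical axis, edgeR with TMM) of the 9 tested genes and of the tested genes of 3 further lists, 1 point a gene with the median as a line, beside all 8903 genes tested (box, middle 50%; whiskers, middle 90%). The lists spread over the range of all genes in both directions in each comparison.

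Some cell type markers also differed between the groups. Of the 5 tested fibroblast markers, 4 were higher and 1 was not called in KO + GFP against WT + GFP. Beside these, 34.2% of all genes were higher and 35.9% lower. The 7 fibroblast markers summed to 62.0 to 69.1 CPM (WT + GFP) and 15850 to 15940 CPM (KO + GFP). The sum was 81.9 to 82.6 CPM in KO + LEENE. Dcn, which encodes the matrix proteoglycan decorin, gave 71.2% of the KO + GFP sum, and Lum and S100a4 were at 0 there. The 11 macrophage markers summed to 30.2 to 40.7 CPM (WT + GFP), 807 to 844 CPM (KO + GFP) and 14.0 to 17.5 CPM (KO + LEENE). Among the 5 tested macrophage markers, 4 were higher and 1 lower in the same comparison, beside 34.2% and 35.9% of all genes. The lower marker, C1qb, had 32 and 37 reads (WT + GFP) and 1 and 5 (KO + GFP). Itgam was at 0 and Cd68, Cd14, C1qa and C1qc were at or under the floor in KO + GFP. These sums were highest in the group in which Fos, Dusp1 and Hspa8 were highest, and their part in the result was not tested.

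The 13 endothelial markers summed to 390 to 423 CPM (WT + GFP), 2441 to 2623 CPM (KO + GFP) and 294 to 314 CPM (KO + LEENE). Of the 10 tested, 3 were higher, 3 lower and 4 not called in KO + GFP against WT + GFP, beside 34.2% higher and 35.9% lower of all genes. Kdr, a receptor for VEGF, had 808 and 708 reads (WT + GFP), 13 and 9 (KO + GFP) and 47 and 41 (KO + LEENE), and the endothelial transcription factor Erg had 417 and 345, 149 and 70, and 8 and 4, so both were lower with KO + GFP than with WT + GFP, against the sum. Emcn, the sialomucin endomucin, gave 90.3% of the KO + GFP sum, and Esam and Tek were at or under the floor in WT + GFP and KO + GFP. Cdh5, which encodes the CD144 protein used for enrichment, had 332 and 283 reads (WT + GFP), 322 and 196 (KO + GFP) and 5 and 18 (KO + LEENE). Markers of mural cells, skeletal muscle, neutrophils and T cells summed to at most 49.7 CPM in a library, and those of red blood cells to 866 to 2662 CPM, with the highest red blood cell sums in WT + GFP. In KO + LEENE, 5 of 7 mural and 6 of 8 skeletal muscle markers were at or under the floor. The part of cell make-up in the changes of the 10 genes was not tested.

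**Figure D5:**
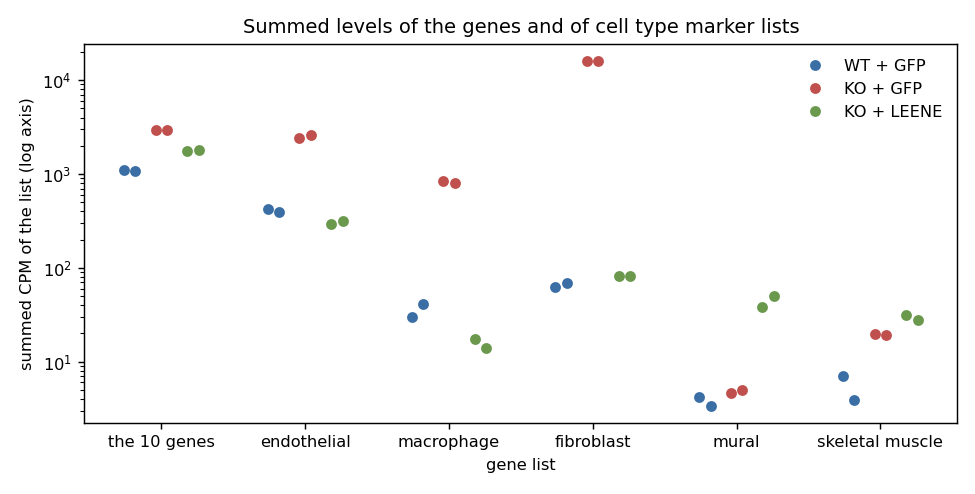
Summed CPM (vertical axis, log scale) of the 10 genes and of 5 marker lists in each library, 1 point a library. KO + GFP is highest for the 10 genes and for the endothelial, macrophage and fibroblast lists, and KO + LEENE for the mural and skeletal muscle lists. In KO + LEENE, Rgs5 gives 76.4% of the mural sum and Acta1 gives 90.6% of the skeletal muscle sum.

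Genes outside these lists with the nearest patterns over the 6 libraries were also sought. Likeness was measured as the root mean square difference in log2 CPM after centring each gene, among 2766 genes with a mean of at least 20 CPM, and is a description without a test. Cep68 was near Fos by this measure (0.239). Jun was closest to Stag1 (0.108) and Cbx3 (0.131), Jund to Pak2 (0.0978) and Hnrnpa2b1 (0.0992), and Egr1 to Yy1 (0.198) and Bms1 (0.208). Junb was closest to Sema6d (0.144) and Agap3 (0.145), and Ier2 to Gm11956 (0.178) and Prmt9 (0.252). Dusp1 was closest to Rpl14 (0.311) and Ylpm1 (0.326), Hspa8 to St6galnac3 (0.256) and Vezf1 (0.272), and Fosb to Phactr2 (0.196) and Gnb1 (0.207). Sema6d, for example, had 686 and 755 reads (WT + GFP) and 3 in each of the other 4 libraries.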

How the data were processed

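The members and gene lists were chosen with earlier results of these data known. The authors deposited unnormalized read counts per gene: per the file headers, featureCounts 2.0.0 over exons of Ensembl genes on GRCm38, without strand, on uniquely aligned reads. The labels list bcl2fastq 2.18 and STAR 2.5.4b, and cDNA came from a 3′ single-cell kit without droplets. No collapsing of molecular identifiers is named, so intervals and floors cover counting error only. Another build (mm9), TPM values and DESeq2 appear in the study's methods.

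Symbols were matched by Ensembl identifier to a later GENCODE release (43465 of 47729). Counts of all 6 libraries entered 1 edgeR 4.0.16 quasi-likelihood fit (R 4.3.3) with TMM scaling, no covariates and filterByExpr (minimum count 10, minimum total 15), which left 8903 genes. TMM factors enter the CPM values. P values were adjusted by Benjamini-Hochberg over all genes tested, and an adjusted value under 0.05 is called. The SE is the log2 fold change over the root of F. Scripts were tested on simulated counts. Beside the 10 genes, those named were the most abundant 8, 8 and 4 of 3 lists, whatever their change, and the 2 nearest genes by likeness, of which 1 is not reported here. Fosl1 and Fosl2 are named as members of the Fos family, some cell type markers with their lists, and the genes of the closing observations were chosen after their values were seen. Promoters are from RefSeq. Alternatives were other size factors, library totals only, DESeq2 1.42.0, other filters, mitochondrial genes left out, thinning, fewer samples, a replicate block and leaving out each library.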

Additional observations from a re-analysis of the deposited data

How the results depend on the processing

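Of the log2 fold changes recomputed, 1211 kept their direction and side of the threshold, 30 changed sign, 24 no longer passed and 14 newly passed. Of the 10 genes, the numbers called without 1 library were 8 to 8, 6 to 7 and 7 to 7 in KO + GFP against WT + GFP, KO + LEENE against KO + GFP and KO + LEENE against WT + GFP, and over all genes 5719 to 6782, 5501 to 6127 and 5806 to 6642. With at least 10 reads in every library, which left 2083 genes and 5 of the 10 (Fos, Jun, Jund, Egr1 and Dusp1) and removed genes low in a group such as Junb and Ier2, 1536, 1505 and 1552 genes were called, and all 5 in each comparison. With library totals only, the KO + LEENE against KO + GFP values turned to 0.67 for Jun, 1.13 for Junb, 0.47 for Jund, 0.87 for Egr1, 0.25 for Btg1, 0.10 for Dusp6, 0.79 for Klf6 and 0.65 for Ctgf. Under the same setting Hspd1 was -0.27 in KO + GFP against WT + GFP, and in KO + LEENE against WT + GFP Hspa8 was 0.23, Ier3 0.14, Hsp90ab1 0.20 and Atf1 0.66. Library totals leave the difference in composition in place. The share of called genes that were lower was then 59.9%, 32.9% and 40.1%, in place of 51.2%, 51.5% and 52.1%. Values near 0 also changed sign, and the cause was not tested. Junb in KO + LEENE against KO + GFP was 0.024 with DESeq2's size factors, 0.023 with DESeq2, 0.11 without a filter, and -0.32 to 0.21 when a library was left out. Hspa8 in KO + LEENE against WT + GFP ranged from -0.94 to 0.20 when a library was left out. In KO + GFP against WT + GFP, Hspa4 was 0.0082 without mitochondrial genes and -0.11 to 0.038 when a library was left out, and Mapk9 was 0.037 after thinning. Atf1 in KO + LEENE against WT + GFP was 0.030 with DESeq2's size factors, 0.031 with DESeq2, 0.045 without a filter, 0.016 without mitochondrial genes and -0.23 to 0.25 when a library was left out. Deviations of libraries with the same replicate number correlated at 0.031, 0.014 and 0.019, so the numbers did not pair them. With the number as a block, 6072, 5841 and 6147 genes were called in place of 6239, 6035 and 6295, the 10 genes gave 8, 7 and 7 calls, and Atf1 was 0.00073. DESeq2 called 5506, 5369 and 5519 genes and 8, 5 and 7 of the 10. Per exon length the Jun family shares of Jun, Junb and Jund were 36.1%, 60.3% and 3.54% (WT + GFP), 89.1%, 0.421% and 10.5% (KO + GFP) and 90.2%, 0.565% and 9.25% (KO + LEENE), and the Fos share of the Fos family was 41.5%, 99.7% and 70.1%. Depth limits Atf3, Fosb, Ier2 and Hspa8 outside the groups in which they are high, with a floor of up to 1.69 CPM.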

Other observations

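Other genes of the 3 lists, chosen after their values were seen, had reads in 1 group and almost none in another. Hsf1, the main heat shock transcription factor, had 8 and 6 reads (WT + GFP), 397 and 264 (KO + GFP) and 0 in both KO + LEENE libraries, a difference between the knockout groups of at least 94.3-fold against a floor of 3 reads in each library. Nr4a2, an orphan nuclear receptor of the immediate early class, had 11 and 3, 1128 and 777, and 2 and 3 reads. Zfp36l1, which encodes an RNA-binding protein that destabilizes transcripts, had 1 and 3, 337 and 210, and 1 and 4 reads. These 3 genes were high in KO + GFP alone.

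Genes high in KO + LEENE alone were also present. Btg2, an antiproliferative relative of Btg1, had 1 and 0 reads (WT + GFP), 8 and 6 (KO + GFP) and 221 and 206 (KO + LEENE). Maff, a small Maf factor, had 13 and 9, 0 and 2, and 96 and 88 reads. Ahsa1, which encodes an activator of HSP90, had 0 and 1, 0 and 1, and 80 and 96 reads. Myc was the reverse, with 177 and 159 reads (WT + GFP), 104 and 74 (KO + GFP) and 1 and 0 (KO + LEENE). Klf4 had 180 and 171, 630 and 389, and 5 and 1 reads. No explanation of these patterns was tested.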
